A study of Homo sapiens with 16 samples.

Results

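The ATP-binding cassette (ABC) transporters were followed in differentiated HepaRG cells given fatty acids, the beta-adrenergic agonist formoterol, or both. The members are the protein-coding genes whose symbol is ABC, a subfamily letter from A to G and a number, and the rule leaves 1 such gene out. This gave 44 genes of 19951 protein-coding genes in the table, with 12 in subfamily A, 8 in B, 11 in C, 4 in D, 1 in E, 3 in F and 5 in G. Of the 44, 40 had enough counts to be tested, and ABCA9, ABCA13, ABCB5 and ABCC12, with at most 29, 6, 9 and 5 counts in any library, did not. None of the 44 was without counts in all 16 libraries.

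HepaRG is a human liver tumour line that, once differentiated, holds hepatocyte-like and cholangiocyte-like cells, so each library is a mixture from 1 line. The 4 groups, with 4 libraries each, were the combination (30 nM formoterol with 0.25 mM palmitic acid and 0.5 mM oleic acid), fatty acids alone at those doses, 30 nM formoterol alone, and control, which received vehicle (1% BSA). BSA is named for control only, and whether the other groups received it is not stated, so any part of it in values against control was not tested. Treatment lasted 3 days with daily medium changes. Every group, control included, was kept in 2% DMSO, and the growth medium also held triamcinolone acetonide, a synthetic glucocorticoid, and insulin. The labels call the replicates independent without naming separate cultures. The p-values therefore cover the variation among these libraries, which may be technical.

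ABC proteins bind and split ATP through a pair of conserved nucleotide-binding domains, and most use that energy to move lipids, bile constituents, drugs or metal complexes across a membrane. In hepatocytes a set of them sits in the canalicular membrane and exports phospholipid, sterols, drugs and conjugated organic anions into bile, while others in the sinusoidal (basolateral) membrane return conjugates to blood. Members of subfamily D import fatty acyl-CoA into peroxisomes, several of subfamily B sit in mitochondria, and E and F proteins have no membrane-spanning part and act on ribosomes. The nuclear receptors LXR, FXR, PXR and CAR are known regulators of many of these genes in liver.

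Total gene counts ran from 32471299 to 65673126 per library, and the members took 0.18% to 0.212% of them. Levels are given in CPM, the usual unit of counts scaled to library size, here after TMM scaling, each as mean ± SD over 4 libraries, and changes as log2 fold changes ± SE. Gene coordinates are those of GRCh38 (GENCODE release 29). Adjusted p-values are from edgeR's quasi-likelihood test with Benjamini-Hochberg adjustment over the 18121 genes tested, and a gene is said to rise or fall where that value was under 0.05. The 15 hepatocyte markers summed to 31570 to 77090 CPM in the combination, 62700 to 71210 CPM with fatty acids, 75210 to 82630 CPM with formoterol and 34080 to 47210 CPM in control. Against control, 8 of the 15 rose and 1 fell in the combination (13 and 1 without combination replicate 2), 10 rose and 1 fell with fatty acids, and 13 rose and none fell with formoterol. Of all genes 7.58% rose and 6.68% fell in the combination, 8.93% and 7.62% with fatty acids, and 5.76% and 4.57% with formoterol. The 10 cholangiocyte markers summed to 257.8 to 335.4 CPM in the combination, 318.5 to 371.5 CPM with fatty acids, 190.7 to 201.7 CPM with formoterol and 165.2 to 170.5 CPM in control. Of the 7 tested, 2 rose and 1 fell in the combination (3 and 1 without combination replicate 2). With fatty acids 3 rose and 1 fell (4 and 1 without that library), and with formoterol 1 rose and none fell, each against control. KRT19, CD24 and SOX9 led the sum and did not move alike. With fatty acids KRT19 averaged 168 CPM and CD24 134 CPM, and in control 58.7 and 50.7 CPM. SOX9 averaged 29.2 CPM with fatty acids and 47.9 CPM in control. The 9 stellate cell and fibroblast markers, led by DCN, summed to 624.4 to 785.2 CPM in the combination, 779.7 to 909.3 CPM with fatty acids, 491.5 to 530.0 CPM with formoterol and 661.9 to 823.6 CPM in control. The 6 endothelial markers summed to 52.63 to 106.7 CPM in the combination, 158.0 to 171.3 CPM with fatty acids, 38.91 to 50.57 CPM with formoterol and 116.6 to 133.1 CPM in control, nearly all of it KDR. In both lists the formoterol libraries lay below all control libraries, and the part of these levels in the members' results was not tested. COL1A2, CDH5 and CLEC4G had 0 counts in every library. The 7 macrophage and leukocyte markers, nearly all CD14, summed to 12.7 to 26.15 CPM in the combination, 18.2 to 21.53 CPM with fatty acids, 25.81 to 32.42 CPM with formoterol and 21.93 to 27.24 CPM in control. EPCAM, which defines biliary epithelium, had 0 counts in every library, a count that allows up to 0.0965 CPM in the library with the smallest scaled depth (3 counts, counting error only). The hepatocyte list averaged -0.639 log2 units from the control mean in combination replicate 2, against 0.703 to 0.812 in the other 3 combination libraries. Combination replicate 2 stood apart from its group, and members' calls that change without it are given both ways. In bulk RNA, fewer cells of a type and less RNA per cell cannot be told apart.

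In control cells the members spanned a wide range of levels. Per kilobase of gene length (the length column of the deposited table), ABCF1 was highest at 30.7 ± 1.31 CPM per kb, and its 4 libraries lay above those of every other member. Next came the basolateral exporter ABCC3 at 24.5 ± 2.71, the peroxisomal ABCD3 at 21.4 ± 1.55 and the canalicular exporter ABCC2 at 21.3 ± 2.84 CPM per kb, whose libraries overlapped from one to the next. The peroxisomal ABCD2 followed at 17.8 ± 0.575 CPM per kb, clear of ABCC2 above and of ABCE1 (14.8 ± 1.47) below. ABCE1, ABCF3 at 14.7 ± 1.37, ABCB1 at 12.6 ± 1.03 and ABCC1 at 11.0 ± 0.417 CPM per kb formed the next overlapping run. ABCB4, the phospholipid exporter of bile, stood at 4.98 ± 0.865 CPM per kb, so both ABCB1 and ABCB4 were detected in every library. ABCG8 stood at 6.31 ± 1.36 CPM per kb and its partner ABCG5 at 0.697 ± 0.200 CPM per kb. ABCG1, known for cholesterol efflux from macrophages, stood at 0.0374 ± 0.0170 CPM per kb, with at most 12 counts in a control library.

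**Figure D1:**
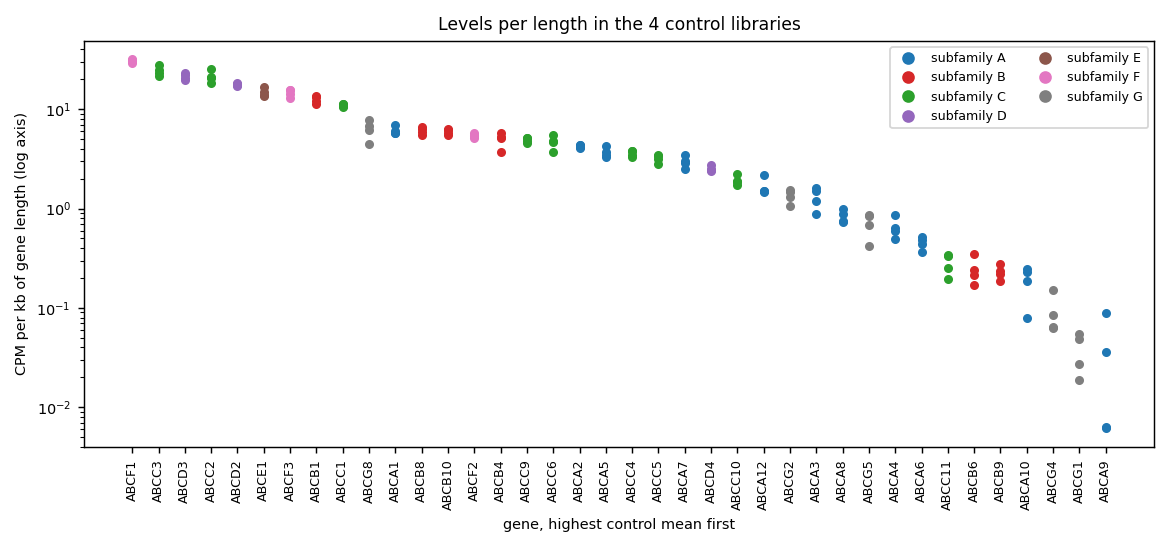
Level of 38 of the 44 ABC genes in the 4 control libraries (points), in CPM per kb of gene length on a log axis, ordered by the control mean and coloured by subfamily. The genes not drawn include ABCA13, ABCB5, ABCC8 and ABCC12, each with a mean under 0.01 CPM per kb, and the highest points, those of ABCF1, lie at 28.97 to 31.89 CPM per kb.

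Across the 6 comparisons, 25 members changed in at least 1 and 15 of those tested changed in none. The share of all genes changed in at least 1 was not counted, so these 2 counts have no background beside them. With fatty acids against control, 14 of 40 members changed (35%), where 16.5% of all genes tested did. Of these members 9 rose and 5 fell, beside 8.93% and 7.62% of all genes. With formoterol against control, 13 of 40 changed (32.5%), where 10.3% of all genes did, with 10 up and 3 down beside 5.76% and 4.57% of all genes. The combination against control gave 11 of 40 (27.5%), beside 14.3% of all genes, with 9 up and 2 down beside 7.58% and 6.68%. These 3 comparisons share the control libraries. Adding formoterol to fatty acids changed 1 of 40, ABCD2, which fell, beside 2.8% of all genes, 1.68% up and 1.12% down. The combination against formoterol gave 14 of 40 (35%), beside 18.4% of all genes, with 8 up and 6 down beside 9.48% and 8.97%. For the interaction, which is the effect of formoterol with fatty acids minus its effect without them, 7 of 40 passed (17.5%), beside 5.5% of all genes, with 2 positive and 5 negative beside 2.12% and 3.38%.

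Most members were well expressed. Among the 35 members averaging 2 CPM or more, 40% changed with fatty acids, 37.1% with formoterol and 31.4% in the combination, each against control. Among all protein-coding genes at that level the shares were 22.8%, 14.2% and 19.7%. For the combination against fatty acids the shares were 2.86% of members and 4.08% of those genes, against formoterol 40% and 24.8%, and for the interaction 20% and 7.87%. Without combination replicate 2, 41 members were tested and 18 changed with fatty acids, 14 with formoterol and 15 in the combination against control, beside 19.4%, 14% and 15.2% of all genes. The combination then differed from fatty acids in 2 members and from formoterol in 12, beside 3.19% and 14.6% of all genes, and the interaction passed in 8 beside 5.54%. With total counts only in place of TMM factors, the median of all genes moved to -0.135 for formoterol against control, 0.143 for the combination against formoterol and 0.168 for the interaction (log2). The members then split 7 up and 4 down, 10 up and 2 down, and 5 positive and 4 negative in those comparisons. Of all genes 13.3%, 20.2% and 7.62% passed with that scaling, and their split by direction was not counted.

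**Figure D2:**
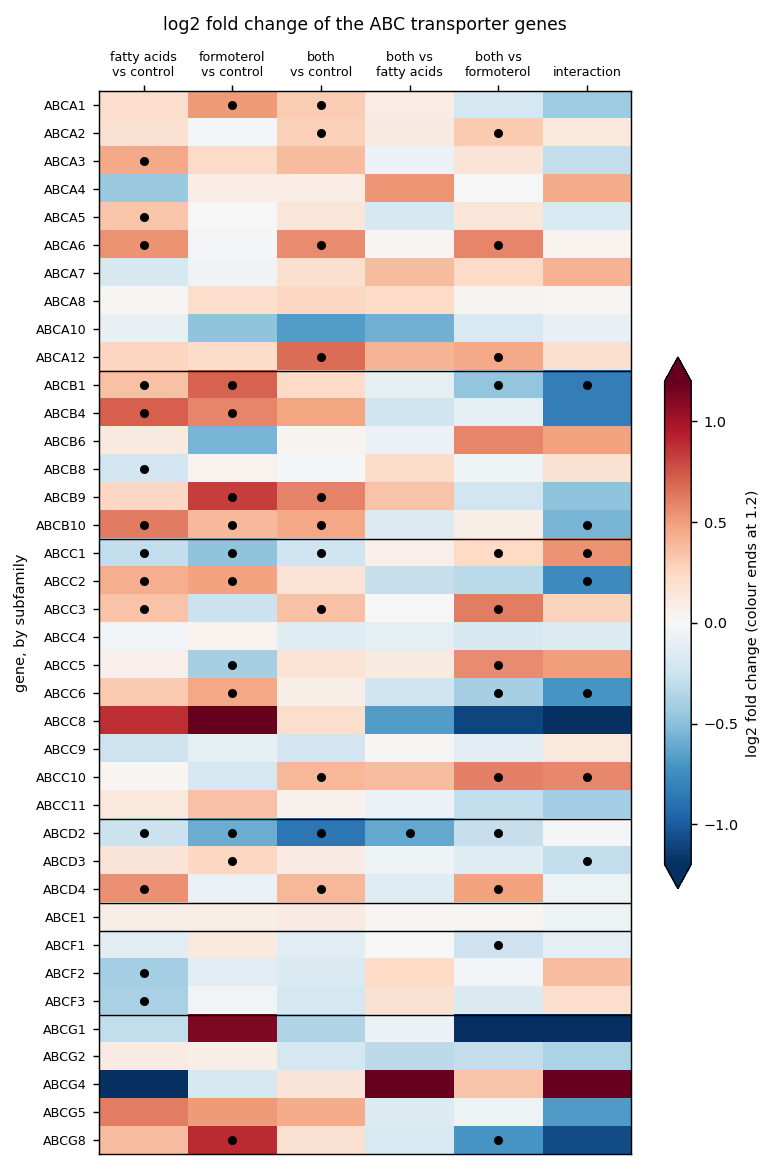
Log2 fold changes of 38 of the 40 tested ABC genes (rows, grouped by subfamily) in 5 pairwise comparisons and the interaction (columns), where both means fatty acids with formoterol and a black dot marks an adjusted p under 0.05. ABCD2 carries a dot in all 5 pairwise columns, and colours of ABCC8, ABCG1 and ABCG4, with at most 47 counts in any library, reach the end of the scale with no dot.

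The exporters of the canalicular membrane that changed with a treatment given alone all rose. Of the 6 members assigned to it here, ABCB1, ABCB4, ABCC2 and ABCG8 rose with formoterol and ABCB1, ABCB4 and ABCC2 rose with fatty acids (ABCG8 also without combination replicate 2), and none fell in either. Of all genes 5.76% rose with formoterol and 8.93% with fatty acids. The median change over the 6 was 0.551 with formoterol and 0.402 with fatty acids, beside -0.002 and 0.007 over all genes (log2). In the combination none of the 6 passed against control by edgeR (1 at an unadjusted p under 0.05, and 0 in DESeq2), beside 14.3% of all genes. The median was 0.21, beside 0.004 over all genes. In edgeR without the count filter ABCB1 and ABCB4 were called higher. Without combination replicate 2, 5 of the 6 (ABCB1, ABCB4, ABCC2, ABCG5 and ABCG8) rose in the combination against control, with a median of 0.425. Of all genes 15.2% then changed in either direction. The hepatocyte marker list was low in the same library, and its part in these results was not tested.

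ABCB1 (ENSG00000085563, chromosome 7, 87503633 to 87713323, minus strand) encodes P-glycoprotein, the multidrug exporter. ABCB1 had 92.9, 58.8, 99.9 and 92.6 CPM in the combination libraries, 99.5, 80.9, 99.7 and 93.0 CPM with fatty acids, 124, 115, 128 and 112 CPM with formoterol and 76.6, 79.2, 65.8 and 70.7 CPM in control. All 4 formoterol libraries lay above every other library, and combination replicate 2 lay below every control library. ABCB1 rose by 0.71 ± 0.12 (adjusted p = 0.000527) with formoterol and by 0.35 ± 0.12 (adjusted p = 0.0399) with fatty acids, and in the combination it was -0.48 ± 0.11 (adjusted p = 0.00582) against formoterol. The combination against control gave 0.24 ± 0.12 (adjusted p = 0.202), and 0.38 ± 0.08 (adjusted p = 0.00073) without combination replicate 2. The gene RUNDC3B, on the opposite strand of the same locus, had 0.142 times the counts of ABCB1, and whether counting used strand is not stated in the sources used here.

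ABCB4 (ENSG00000005471, chromosome 7, 87401697 to 87480435, minus strand) encodes the transporter that moves phosphatidylcholine into bile, and lies 23197 bases from ABCB1. ABCB4 had 63.2, 26.5, 62.8 and 60.9 CPM in the combination libraries, 64.9, 55.1, 66.0 and 66.0 CPM with fatty acids, 61.0, 58.6, 56.3 and 55.5 CPM with formoterol and 40.8, 44.2, 28.8 and 40.0 CPM in control. Every fatty acid and formoterol library lay above every control library, as did 3 combination libraries, while combination replicate 2 lay lowest of all 16. ABCB4 rose by 0.71 ± 0.18 (adjusted p = 0.00861) with fatty acids and by 0.59 ± 0.18 (adjusted p = 0.0399) with formoterol. In the combination it was 0.47 ± 0.18 (adjusted p = 0.0883) from control, and 0.70 ± 0.10 (adjusted p = 7.65e-06) without combination replicate 2.

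ABCC2 (ENSG00000023839, chromosome 10, 99782640 to 99852594, plus strand) encodes the canalicular exporter of bilirubin glucuronides and other conjugates. ABCC2 had 208, 116, 215 and 208 CPM in the combination libraries, 217, 208, 249 and 228 CPM with fatty acids, 244, 231, 236 and 225 CPM with formoterol and 164, 198, 145 and 161 CPM in control. The fatty acid and formoterol libraries all lay above the control libraries, and combination replicate 2 again lay lowest of the 16. ABCC2 rose by 0.48 ± 0.13 (adjusted p = 0.0217) with formoterol and by 0.43 ± 0.13 (adjusted p = 0.0267) with fatty acids. In the combination it was 0.16 ± 0.13 (adjusted p = 0.502) from control, and 0.33 ± 0.08 (adjusted p = 0.00302) without combination replicate 2. ABCG2, which exports drugs and urate, did not pass in any comparison and averaged 5.89 ± 0.963 CPM in the combination, 7.30 ± 1.33 with fatty acids, 7.16 ± 0.552 with formoterol and 6.81 ± 1.05 CPM in control.

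ABCG5 and ABCG8 form 1 dimer that secretes cholesterol and plant sterols into bile. ABCG8 (ENSG00000143921, chromosome 2, 43831942 to 43882987, plus strand) was the member with the largest called change. ABCG8 had 84.6, 25.5, 92.2 and 89.9 CPM in the combination libraries, 85.4, 78.6, 89.4 and 78.6 CPM with fatty acids, 117, 117, 117 and 126 CPM with formoterol and 63.1, 79.0, 46.0 and 68.9 CPM in control. The 4 formoterol libraries lay within a narrow band above all others, and the control and fatty acid groups touched. ABCG8 rose by 0.89 ± 0.24 (adjusted p = 0.0192) with formoterol and was -0.71 ± 0.24 (adjusted p = 0.0412) in the combination against formoterol. Without combination replicate 2 the second value was -0.42 ± 0.10 (adjusted p = 0.00657), and fatty acids against control gave 0.37 ± 0.10 (adjusted p = 0.00762). Without that library ABCG8 was 0.47 ± 0.10 (adjusted p = 0.00212) in the combination against control. ABCG5 had 4.38, 1.07, 4.22 and 4.48 CPM in the combination, 4.07, 2.56, 3.97 and 5.26 CPM with fatty acids, 3.54, 4.47, 3.64 and 3.17 CPM with formoterol and 3.18, 3.10, 1.57 and 2.52 CPM in control. ABCG5 passed no comparison over all 16 libraries, and without combination replicate 2 it was 0.75 ± 0.24 (adjusted p = 0.0327) from control in the combination. The genes overlap on opposite strands and ABCG8 had 25 times the counts of ABCG5, so ABCG5 values are uncertain.

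Several of these calls were lost when any 1 of several libraries was left out, and some under other alternatives, but none reversed direction. With fatty acids, ABCB1 was lost without control replicate 1, 3 or 4 or fatty acids replicate 1, 3 or 4 (adjusted p up to 0.122), and ABCC2 without control replicate 1, 3 or 4 or fatty acids replicate 1, 3 or 4 (adjusted p up to 0.0924). With formoterol, ABCB4 was lost without control replicate 1, 3 or 4 or formoterol replicate 1, 2, 3 or 4 or fatty acids replicate 1, with total counts only, in DESeq2 (adjusted p up to 0.147), ABCC2 without control replicate 1, 3 or 4 or formoterol replicate 1 (adjusted p up to 0.0875), and ABCG8 without control replicate 3 or formoterol replicate 4 (adjusted p up to 0.0818). The fall of ABCG8 in the combination against formoterol was lost without control replicate 1 or 4 or formoterol replicate 1, 2, 3 or 4 or fatty acids replicate 1 or 2 or combination replicate 1, in DESeq2, in a fit of only the 2 groups compared (adjusted p up to 0.126).

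The stretch between the starts of ABCG5 and ABCG8 is shown because both genes of the dimer start from it, and the sequences before the starts of ABCB1 and ABCC2 are shown because both genes rose with either treatment and had a negative interaction. All are RefSeq sequences of GRCh38.p14, printed 5′ to 3′ on the gene's strand (for ABCG5 and ABCG8 the plus strand, chr2:43838840-43838970, 131 bases). The windows of ABCB1 (chr7:87600885-87601134, minus strand, at the downstream of 2 RefSeq starts) and ABCC2 (chr10:99782390-99782639, plus strand) hold the 250 bases before the start. Of the 44 members, 34 matched a RefSeq promoter, with 52 entries. Windows were searched on both strands for the CCAAT box. The GC box GGGCGG was searched in the same way. So was TGACG, the core of the element that cAMP-responsive factors bind. The full element TGACGTCA contains that core and was counted on its own, as was the E-box CACGTG. Capitals mark a match to the CCAAT box, the GC box or the core of the cAMP element on either strand.
ABCG5 to ABCG8: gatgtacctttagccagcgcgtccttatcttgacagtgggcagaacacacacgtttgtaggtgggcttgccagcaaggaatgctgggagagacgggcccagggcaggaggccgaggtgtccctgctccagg
ABCB1: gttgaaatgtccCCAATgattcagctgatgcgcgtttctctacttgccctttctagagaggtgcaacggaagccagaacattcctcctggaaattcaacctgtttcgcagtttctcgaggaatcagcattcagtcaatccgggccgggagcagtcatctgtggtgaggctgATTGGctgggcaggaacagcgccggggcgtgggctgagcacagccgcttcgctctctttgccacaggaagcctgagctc
ABCC2: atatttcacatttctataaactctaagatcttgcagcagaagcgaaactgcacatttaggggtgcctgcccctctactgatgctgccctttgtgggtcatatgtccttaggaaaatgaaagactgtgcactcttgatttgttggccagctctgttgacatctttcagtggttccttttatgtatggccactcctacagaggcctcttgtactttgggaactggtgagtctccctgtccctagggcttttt

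ABCB1 holds CCAAT 2 times, once on each strand, and ABCC2 holds none of these motifs in the window. Across 35116 promoter windows of that length, 32% hold CCAAT, 42.6% GGGCGG, 21.2% TGACG, 1.65% TGACGTCA and 6.34% CACGTG. Of the members' 52 entries, 21.2% hold CCAAT, 48.1% GGGCGG, 32.7% TGACG, 1.92% TGACGTCA and 17.3% CACGTG. Entries of 1 gene can overlap, and a match describes letters, not binding.

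**Figure D3:**
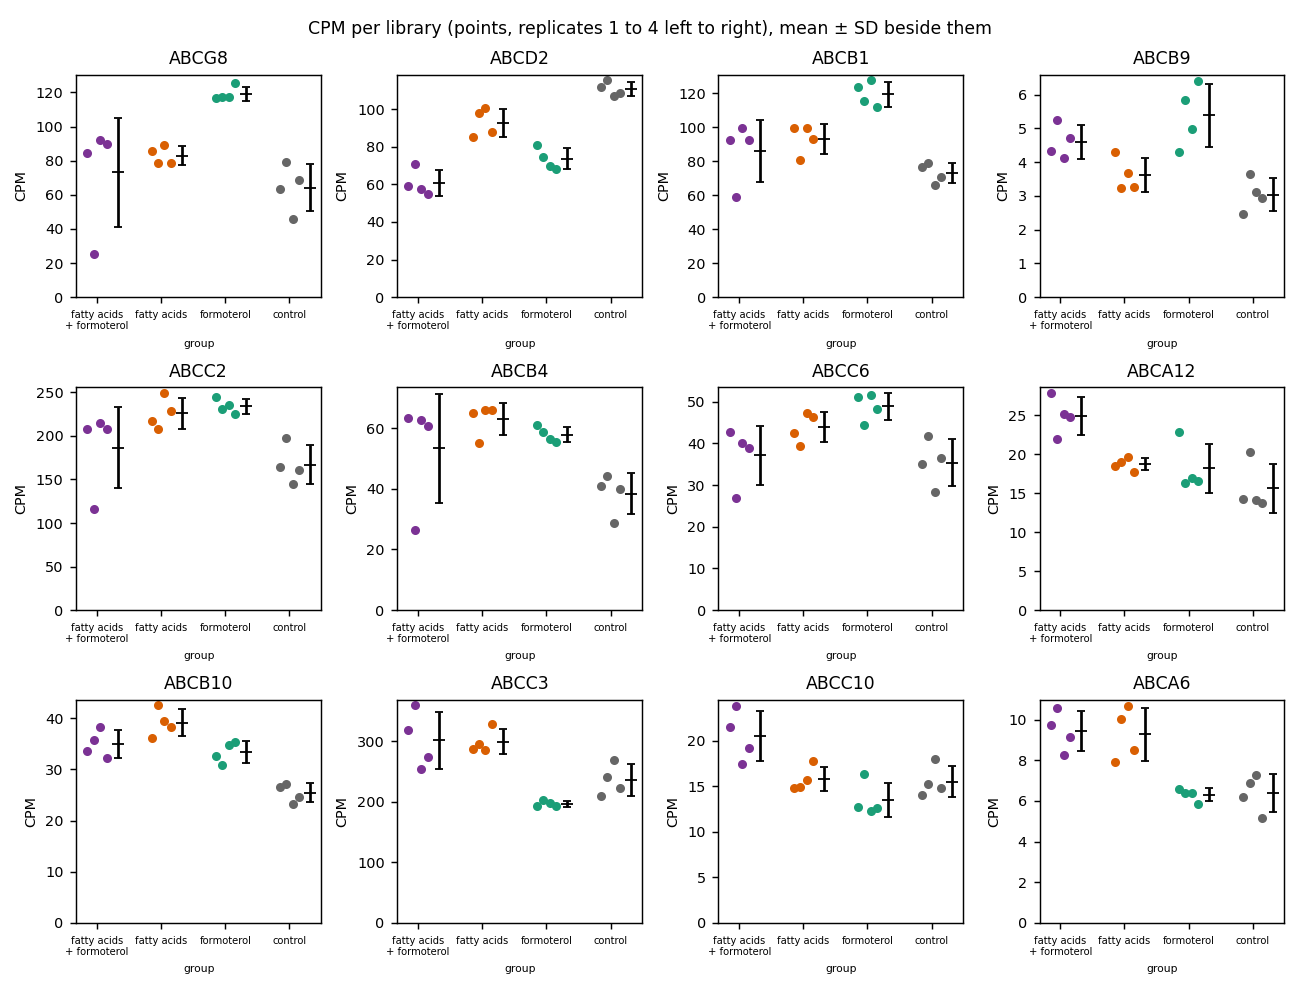
CPM of the 12 ABC genes with the largest called changes in each library (points, replicates 1 to 4 from left to right) with mean and SD over 4 libraries beside them, for fatty acids with formoterol, fatty acids, formoterol and control. Combination replicate 2 is the low purple point for ABCG8 (25.5 CPM), ABCB4 (26.5 CPM) and ABCC2 (116 CPM).

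Cellular cholesterol efflux was represented by ABCA1 and ABCG1. ABCA1 (ENSG00000165029, chromosome 9, 104781002 to 104928237, minus strand) loads cholesterol and phospholipid onto apolipoprotein A-I. ABCA1 had 87.8, 63.9, 99.8 and 91.5 CPM in the combination libraries, 75.5, 79.6, 87.5 and 79.9 CPM with fatty acids, 102, 98.4, 97.4 and 99.3 CPM with formoterol and 69.1, 77.9, 66.0 and 65.1 CPM in control. The formoterol libraries lay within 97.4 to 102 CPM, above every control and fatty acid library, while the combination spread from below control to above formoterol replicate 3. ABCA1 rose by 0.51 ± 0.10 (adjusted p = 0.00178) with formoterol and by 0.30 ± 0.10 (adjusted p = 0.0379) in the combination. With fatty acids alone it was 0.21 ± 0.10 (adjusted p = 0.145), and 0.21 ± 0.07 (adjusted p = 0.0205) without combination replicate 2. The call in the combination was lost without control replicate 1, 3 or 4 or fatty acids replicate 1 or combination replicate 1, 3 or 4. That call was also lost in a fit of only the 2 groups compared and with the replicate number as a block (adjusted p up to 0.156 over all of these). ABCG1 averaged 0.178 ± 0.0798 CPM in the combination, 0.188 ± 0.201 with fatty acids, 0.505 ± 0.309 with formoterol and 0.229 ± 0.104 CPM in control and passed no comparison, near the limit of this depth.

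The exporters of the basolateral membrane did not move as 1 group. Of 5 members, ABCC3 rose and ABCC1 fell with fatty acids, and ABCC6 rose while ABCC1 and ABCC5 fell with formoterol. In the combination against formoterol, ABCC1, ABCC3 and ABCC5 were higher and ABCC6 lower, 4 of 5 changed (2 of 5, ABCC3 and ABCC5, without combination replicate 2). Of all genes 16.5% changed with fatty acids, 10.3% with formoterol and 18.4% in the combination against formoterol (14.6% without combination replicate 2). The median change over the 5 was 0.064 with fatty acids, -0.262 with formoterol and 0.241 for the combination against formoterol (0.158 without that library), beside 0.007, -0.002 and 0.008 over all genes (log2).

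ABCC3 (ENSG00000108846, chromosome 17, 50634777 to 50692252, plus strand) returns glucuronides and bile salts to blood. ABCC3 had 318, 359, 254 and 274 CPM in the combination libraries, 288, 295, 286 and 329 CPM with fatty acids, 193, 203, 198 and 193 CPM with formoterol and 209, 241, 269.7 and 223 CPM in control. Fatty acid libraries lay above control and formoterol libraries, and formoterol libraries lay below the other 3 groups. ABCC3 rose by 0.35 ± 0.09 (adjusted p = 0.0109) with fatty acids and by 0.35 ± 0.09 (adjusted p = 0.010) in the combination. It was higher by 0.62 ± 0.09 (adjusted p = 7.04e-05) in the combination than with formoterol, and formoterol alone gave -0.26 ± 0.09 (adjusted p = 0.0689), not past the threshold. ABCC3 was called lower with formoterol in DESeq2, with total counts only, without the count filter, in a fit of only the 2 groups compared, and without control replicate 1 or combination replicate 2 or 3. In the other alternatives it was not called.

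ABCC1 (ENSG00000103222, chromosome 16, 15949577 to 16143074, plus strand), a broad exporter of glutathione conjugates, is 5853 bases from ABCC6 on chromosome 16. ABCC1 had 68.8, 82.2, 63.5 and 67.3 CPM in the combination libraries, 67.1, 65.0, 69.2 and 69.4 CPM with fatty acids, 58.3, 61.9, 61.6 and 56.8 CPM with formoterol and 79.4, 81.7, 86.2 and 85.3 CPM in control. Every control library lay above every fatty acid and formoterol library, and combination replicate 2 was the 1 combination library within the control range. ABCC1 fell by 0.48 ± 0.07 on the log2 scale with formoterol (adjusted p = 0.000179). With fatty acids it changed by -0.30 ± 0.07 (adjusted p = 0.0049) and in the combination by -0.24 ± 0.07 (adjusted p = 0.0235). The combination was 0.24 ± 0.07 (adjusted p = 0.0189) against formoterol. Only the change in the combination against control (lost without control replicate 3 or 4 or combination replicate 1, 3 or 4, with total counts only, in a fit of only the 2 groups compared (adjusted p up to 0.119)) and that against formoterol (lost without formoterol replicate 1 or 4 or combination replicate 2, in a fit of only the 2 groups compared (adjusted p up to 0.0945)) depended on the alternatives among these 4.

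ABCC6 (ENSG00000091262, chromosome 16, 16148928 to 16223522, minus strand) is highly expressed in liver, and its loss causes pseudoxanthoma elasticum. ABCC6 had 42.7, 26.8, 40.1 and 39.0 CPM in the combination libraries, 42.4, 39.5, 47.3 and 46.4 CPM with fatty acids, 51.2, 44.5, 51.5 and 48.3 CPM with formoterol and 35.2, 41.8, 28.2 and 36.4 CPM in control. The formoterol libraries lay above the control libraries, the fatty acid libraries overlapped both, and combination replicate 2 lay lowest. ABCC6 rose by 0.47 ± 0.12 (adjusted p = 0.0165) with formoterol and was -0.39 ± 0.12 (adjusted p = 0.0251) in the combination against formoterol. With fatty acids it was 0.31 ± 0.12 (adjusted p = 0.0864), and 0.31 ± 0.09 (adjusted p = 0.016) without combination replicate 2. Of the calls with formoterol, the first was lost without control replicate 3 (adjusted p up to 0.0745) and the second without formoterol replicate 1 or 3 or combination replicate 2, with total counts only, in a fit of only the 2 groups compared (adjusted p up to 0.0766). Its near-identical pseudogene ABCC6P1 had 0.624 times its counts and ABCC6P2 0.0208 times, so reads may be split between them and ABCC6 values are uncertain. The 250 bases before its start (chr16:16223495-16223744, minus strand), shown for its negative interaction, hold none of the motifs searched.
ABCC6: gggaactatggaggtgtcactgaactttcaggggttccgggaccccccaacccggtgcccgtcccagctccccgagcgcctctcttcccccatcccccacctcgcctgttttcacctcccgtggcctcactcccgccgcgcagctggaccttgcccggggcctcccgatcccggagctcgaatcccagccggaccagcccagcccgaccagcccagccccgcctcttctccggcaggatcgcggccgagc

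ABCC5 (ENSG00000114770, chromosome 3, 183919934 to 184018015, minus strand), which exports cyclic nucleotides and other organic anions, had 42.1, 49.6, 32.8 and 40.3 CPM in the combination, 37.6, 37.3, 33.2 and 45.0 CPM with fatty acids, 26.8, 30.5, 27.4 and 26.3 CPM with formoterol and 36.1, 39.2, 38.9 and 32.4 CPM in control. The formoterol libraries lay below all others. It changed by -0.40 ± 0.11 (adjusted p = 0.021) with formoterol and was higher by 0.57 ± 0.11 (adjusted p = 0.000885) in the combination than with formoterol. The first of these was lost without control replicate 2 or 3 or formoterol replicate 1, 3 or 4 (adjusted p up to 0.0704). ABCC4, an exporter of cyclic nucleotides and bile salts, passed no comparison and averaged 28.1 ± 1.24 CPM in the combination, 30.4 ± 1.85 with fatty acids, 32.1 ± 3.50 with formoterol and 31.1 ± 2.05 CPM in control.

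The ratio of ABCC3 to ABCC2 sets a basolateral beside a canalicular exporter of conjugates within each library. It was 1.53, 3.09, 1.18 and 1.32 in the combination, 1.32, 1.42, 1.15 and 1.44 with fatty acids, 0.789, 0.881, 0.839 and 0.856 with formoterol and 1.28, 1.22, 1.86 and 1.38 in control. The formoterol libraries lay below all the others, and combination replicate 2 lay highest. The ratio of ABCB1 to ABCC1 was 0.715 to 1.57 in the combination, 1.25 to 1.48 with fatty acids, 1.86 to 2.12 with formoterol and 0.764 to 0.969 in control. These ratios of CPM are not corrected for gene length and were not tested, so they serve only to compare libraries.

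**Figure D4:**
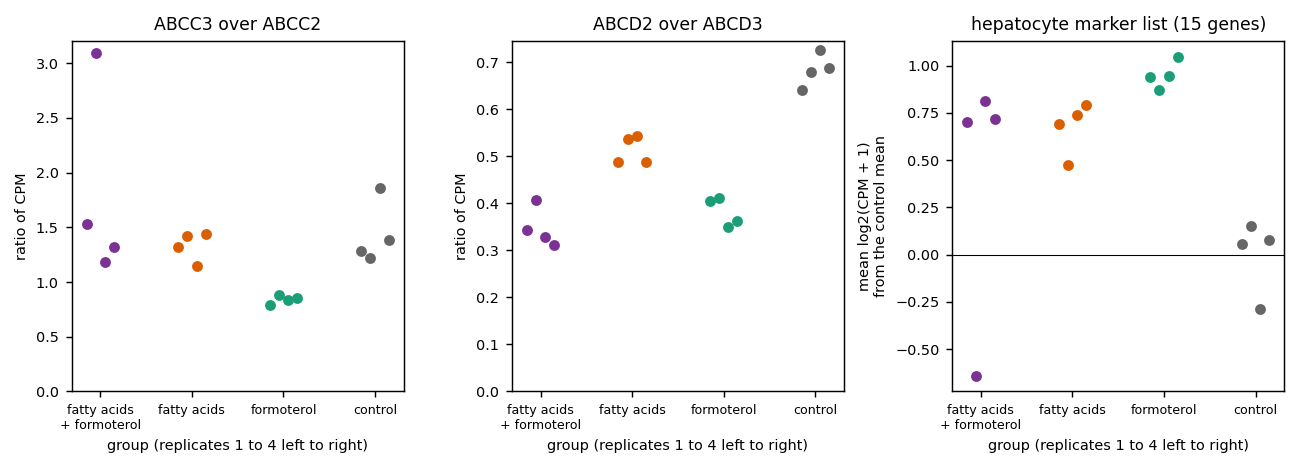
Ratio of ABCC3 to ABCC2, ratio of ABCD2 to ABCD3 (both in CPM) and the hepatocyte marker list (mean log2(CPM + 1) of 15 genes from the control mean) in each library (points), for fatty acids with formoterol, fatty acids, formoterol and control. Combination replicate 2 is at 3.09 in the first panel and -0.639 in the third, and ABCD2 over ABCD3 is 0.641 to 0.725 in control, above the other 3 groups.

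Subfamily D held the member that changed in the most comparisons with 1 direction, ABCD2. ABCD2 and ABCD3 bring very long chain, polyunsaturated and branched fatty acyl-CoA into peroxisomes, and ABCD4 takes part in the exit of vitamin B12 from lysosomes. Among the D members reported here, ABCD4 rose and ABCD2 fell with fatty acids, and ABCD3 rose and ABCD2 fell with formoterol. In the combination ABCD4 rose and ABCD2 fell. These changes are all against control.

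ABCD2 (ENSG00000173208, chromosome 12, 39550033 to 39619751, minus strand) is a peroxisomal transporter of very long chain acyl-CoA. ABCD2 had 59.4, 70.7, 57.4 and 55.0 CPM in the combination libraries, 85.4, 97.8, 100.5 and 87.8 CPM with fatty acids, 81.0, 74.8, 70.0 and 68.5 CPM with formoterol and 112, 115, 107 and 109 CPM in control. The control libraries lay above all others and the groups stood in the order control, fatty acids, formoterol and combination by their means, with 1 combination library inside the formoterol range. ABCD2 changed by -0.87 ± 0.08 (adjusted p = 9.27e-08) in the combination, by -0.59 ± 0.08 (adjusted p = 6.7e-05) with formoterol and by -0.25 ± 0.08 (adjusted p = 0.0269) with fatty acids, each against control. Adding formoterol to fatty acids changed it by -0.62 ± 0.08 (adjusted p = 4.5e-05), and adding fatty acids to formoterol by -0.28 ± 0.08 (adjusted p = 0.0154). The interaction was -0.02 ± 0.11 (adjusted p = 0.932). The 2 smaller falls depended on the alternatives: that with fatty acids was lost without control replicate 1 or 2 or fatty acids replicate 1 or 4, with total counts only (adjusted p up to 0.0817), and that of the combination against formoterol without formoterol replicate 1 or combination replicate 4, with total counts only, in a fit of only the 2 groups compared (adjusted p up to 0.361).

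ABCD3 (ENSG00000117528, chromosome 1, 94418455 to 94518666, plus strand), a peroxisomal transporter like ABCD2, had 173, 174, 174 and 176 CPM in the combination, 175, 182, 185 and 180.0 CPM with fatty acids, 200.2, 181, 200.5 and 189 CPM with formoterol and 174, 169.6, 148 and 158 CPM in control. The formoterol libraries lay above the control libraries, and the combination libraries lay close together. It rose by 0.25 ± 0.06 (adjusted p = 0.00775) with formoterol, a call lost with total counts only (adjusted p up to 0.251). The ratio of ABCD2 to ABCD3 was 0.312 to 0.407 in the combination, 0.487 to 0.544 with fatty acids, 0.349 to 0.412 with formoterol and 0.641 to 0.725 in control.

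ABCD4 (ENSG00000119688, chromosome 14, 74285423 to 74303056, minus strand) averaged 29.2 ± 2.50 CPM in the combination, 32.4 ± 1.45 with fatty acids, 20.9 ± 0.807 with formoterol and 22.1 ± 1.47 CPM in control. It rose by 0.55 ± 0.08 (adjusted p = 3.16e-05) with fatty acids and by 0.40 ± 0.08 (adjusted p = 0.00094) in the combination, where it was 0.49 ± 0.08 (adjusted p = 0.000162) above formoterol. These 3 calls of ABCD4 held under every alternative run.

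The windows before the starts of ABCD2 (chr12:39619804-39620053, minus strand) and ABCD3 (chr1:94418139-94418388, plus strand) are shown because the 2 genes of related function moved in opposite directions with formoterol. ABCD2 holds CCAAT and GGGCGG, and ABCD3 holds TGACG and GGGCGG 4 times, counted on both strands.
ABCD2: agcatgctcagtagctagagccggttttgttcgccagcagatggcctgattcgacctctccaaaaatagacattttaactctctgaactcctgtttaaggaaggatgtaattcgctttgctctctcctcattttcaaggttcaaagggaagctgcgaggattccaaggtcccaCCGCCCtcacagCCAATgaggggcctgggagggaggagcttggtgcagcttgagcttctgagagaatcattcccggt
ABCD3: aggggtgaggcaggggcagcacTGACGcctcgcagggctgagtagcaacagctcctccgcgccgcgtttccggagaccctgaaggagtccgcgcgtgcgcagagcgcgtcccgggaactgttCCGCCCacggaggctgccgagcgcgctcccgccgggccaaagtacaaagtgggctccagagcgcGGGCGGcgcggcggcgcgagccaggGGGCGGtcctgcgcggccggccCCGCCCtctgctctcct

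Of the mitochondrial members, ABCB10 rose with every treatment, ABCB8 fell with fatty acids and ABCB6 passed no comparison. ABCB10 (ENSG00000135776, chromosome 1, 229516582 to 229558695, minus strand) sits in the inner membrane and is needed for haem synthesis. ABCB10 had 33.6, 35.8, 38.2 and 32.1 CPM in the combination libraries, 36.1, 42.5, 39.5 and 38.2 CPM with fatty acids, 32.7, 30.8, 34.7 and 35.4 CPM with formoterol and 26.6, 27.2, 23.2 and 24.7 CPM in control. All treated libraries lay above the control libraries. ABCB10 rose by 0.46 ± 0.08 (adjusted p = 0.000279) in the combination, by 0.62 ± 0.08 (adjusted p = 8.43e-06) with fatty acids and by 0.39 ± 0.08 (adjusted p = 0.00288) with formoterol, each against control, and the calls held under every alternative run. Its window (chr1:229558708-229558957, minus strand), shown for its negative interaction, holds GGGCGG 4 times.
ABCB10: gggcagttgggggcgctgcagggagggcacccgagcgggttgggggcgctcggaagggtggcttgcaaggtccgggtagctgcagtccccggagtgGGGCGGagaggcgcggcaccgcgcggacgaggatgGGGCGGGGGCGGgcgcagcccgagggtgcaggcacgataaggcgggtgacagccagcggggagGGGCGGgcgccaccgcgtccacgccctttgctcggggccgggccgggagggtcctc

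ABCB8, which is linked to mitochondrial iron export, changed by -0.23 ± 0.07 (adjusted p = 0.0281) with fatty acids, a call lost without control replicate 2 or 4 or fatty acids replicate 1, 2 or 3, without the count filter (adjusted p up to 0.101). It averaged 56.5 ± 3.73 CPM in the combination, 48.5 ± 3.29 with fatty acids, 58.4 ± 2.13 with formoterol and 56.9 ± 4.41 CPM in control. ABCB6, a porphyrin transporter, averaged 1.31 ± 0.655 CPM in the combination, 1.38 ± 0.144 with fatty acids, 0.879 ± 0.340 with formoterol and 1.28 ± 0.404 CPM in control, and its counts are uncertain because an overlapping gene had 0.207 times as many. None of the 11 listed haem and iron-sulphur genes passed with fatty acids by edgeR (4 at an unadjusted p under 0.05, and 1 in DESeq2). With formoterol 1 rose (ALAS1) and 1 fell (SLC25A37), beside 5.76% and 4.57% of all genes. Without combination replicate 2 this was 3 and 1 with formoterol, where DESeq2 called 4 in all 16 libraries, and 1 fell with fatty acids.

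ABCB9 (ENSG00000150967, chromosome 12, 122920951 to 122981649, minus strand), a lysosomal peptide transporter, was measured at a low level. ABCB9 had 4.32, 5.26, 4.12 and 4.70 CPM in the combination libraries, 4.31, 3.25, 3.67 and 3.26 CPM with fatty acids, 4.31, 5.83, 4.99 and 6.40 CPM with formoterol and 2.46, 3.65, 3.11 and 2.93 CPM in control. The formoterol and combination libraries all lay above every control library. ABCB9 rose by 0.83 ± 0.17 (adjusted p = 0.00423) with formoterol and by 0.60 ± 0.18 (adjusted p = 0.0247) in the combination against control. The second call was lost without control replicate 1 or 4 or combination replicate 2 or 4, without the count filter, in a fit of only the 2 groups compared (adjusted p up to 0.0876).

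In subfamily A, 3 of 10 tested members rose with fatty acids, 1 with formoterol and 4 in the combination, each against control, and none fell. Of all genes 8.93%, 5.76% and 7.58% rose in these comparisons, so the count with formoterol was near the background. ABCA6 (ENSG00000154262, chromosome 17, 69078702 to 69141888, minus strand) lies in a cluster of related genes on chromosome 17 with ABCA8, ABCA9, ABCA10 and ABCA5. ABCA6 had 9.75, 10.6, 8.26 and 9.16 CPM in the combination libraries, 7.91, 10.1, 10.7 and 8.49 CPM with fatty acids, 6.57, 6.40, 6.41 and 5.84 CPM with formoterol and 6.18, 6.90, 7.29 and 5.14 CPM in control. Every library with fatty acids, alone or combined, lay above every library without. ABCA6 rose by 0.54 ± 0.14 (adjusted p = 0.00861) with fatty acids and by 0.57 ± 0.14 (adjusted p = 0.00671) in the combination, and it was 0.58 ± 0.14 (adjusted p = 0.00456) above formoterol in the combination. Its neighbour ABCA5, a lysosomal member, rose by 0.33 ± 0.08 (adjusted p = 0.00855) with fatty acids and averaged 53.7 ± 4.02 CPM in the combination, 61.3 ± 6.13 with fatty acids, 48.5 ± 2.37 with formoterol and 48.6 ± 5.57 CPM in control. ABCA8 and ABCA10 passed no comparison, and ABCA10 overlaps ABCA5, which had 41.5 times its counts.

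ABCA12 (ENSG00000144452, chromosome 2, 214931542 to 215138428, minus strand), which loads lipid into the lamellar granules of skin, was highest in the combination. ABCA12 had 27.8, 21.9, 25.2 and 24.7 CPM in the combination libraries, 18.5, 19.0, 19.7 and 17.8 CPM with fatty acids, 22.9, 16.4, 16.9 and 16.6 CPM with formoterol and 14.3, 20.4, 14.2 and 13.8 CPM in control. The combination libraries lay above every control and fatty acid library, and formoterol replicate 1 reached into the combination range. ABCA12 rose by 0.67 ± 0.13 (adjusted p = 0.000715) in the combination against control and was 0.45 ± 0.12 (adjusted p = 0.0139) above formoterol. The second call was lost without formoterol replicate 4 or combination replicate 1 (adjusted p up to 0.0534). Against fatty acids the combination gave 0.41 ± 0.12 (adjusted p = 0.0854), and 0.47 ± 0.13 (adjusted p = 0.0397) without combination replicate 2.

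ABCA2, an endolysosomal lipid transporter known mainly from brain, averaged 59.7 ± 5.09 CPM in the combination, 55.5 ± 4.84 with fatty acids, 48.2 ± 4.08 with formoterol and 48.9 ± 2.21 CPM in control. It rose by 0.29 ± 0.08 (adjusted p = 0.0158) in the combination against control, lost without control replicate 1 or combination replicate 1 or 3 (adjusted p up to 0.0593), and was 0.31 ± 0.08 (adjusted p = 0.00812) above formoterol. ABCA3, which packs surfactant lipid in lung, averaged 13.1 ± 2.07 CPM in the combination, 13.8 ± 0.627 with fatty acids, 11.8 ± 1.41 with formoterol and 10.1 ± 2.51 CPM in control. Its change of 0.45 ± 0.15 (adjusted p = 0.0482) with fatty acids lay at the threshold and was lost without control replicate 2 or 4 or formoterol replicate 2, 3 or 4 or fatty acids replicate 1, 2, 3 or 4 or combination replicate 1 or 4, with DESeq2 size factors, with total counts only (adjusted p up to 0.174). In the combination it was 0.38 ± 0.15 (adjusted p = 0.109) from control, and 0.49 ± 0.15 (adjusted p = 0.024) without combination replicate 2.

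ABCC10 (ENSG00000124574, chromosome 6, 43427366 to 43450430, plus strand), an exporter of lipophilic anions and taxanes, was highest in the combination. ABCC10 had 21.5, 23.9, 17.5 and 19.3 CPM in the combination libraries, 14.9, 14.9, 15.8 and 17.8 CPM with fatty acids, 12.8, 16.4, 12.3 and 12.7 CPM with formoterol and 14.0, 15.3, 18.0 and 14.8 CPM in control. Most combination libraries lay above all other libraries, with replicate 3 inside the control and fatty acid ranges. ABCC10 rose by 0.40 ± 0.12 (adjusted p = 0.0232) in the combination against control and was 0.60 ± 0.12 (adjusted p = 0.00105) above formoterol. The first call was lost without control replicate 1, 2 or 4 or combination replicate 1 or 2 (adjusted p up to 0.0811). ABCC8 and ABCC9, the sulphonylurea receptor subunits of potassium channels, and ABCC11 passed no comparison over all 16 libraries, though ABCC9 was -0.24 ± 0.08 (adjusted p = 0.0342) with fatty acids without combination replicate 2, and ABCC11 overlaps LONP2, which had 69.9 times its counts.

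Of the genes for the soluble E and F proteins, ABCF1, ABCE1 and ABCF3 ranked 1, 6 and 7 among the members per length in control, and ABCF2 ranked 15. Of these 4 genes 2 changed with fatty acids, beside 16.5% of all genes. ABCE1, which splits ribosomes after termination, averaged 98.7 ± 4.55 CPM in the combination, 97.7 ± 4.27 with fatty acids, 97.5 ± 1.23 with formoterol and 92.5 ± 9.20 CPM in control and passed no comparison. OTUD4, on the opposite strand, had 0.698 times the counts of ABCE1. ABCF2 changed by -0.41 ± 0.10 (adjusted p = 0.00672) and ABCF3 by -0.39 ± 0.08 (adjusted p = 0.00163) with fatty acids, and both calls held under every alternative run. ABCF3 had 68.1, 70.0, 58.1 and 69.0 CPM in the combination, 65.6, 52.5, 57.8 and 57.6 CPM with fatty acids, 74.0, 80.6, 71.1 and 74.0 CPM with formoterol and 74.5, 67.3, 82.2 and 82.0 CPM in control, with every fatty acid library below every control library. ABCF1, which promotes translation initiation, was -0.25 ± 0.06 (adjusted p = 0.00426) in the combination against formoterol, a call lost with total counts only (adjusted p up to 0.237), and averaged 127 ± 7.23 CPM in the combination and 150.3 ± 7.22 CPM with formoterol. None of the 7 listed ribosome and translation partners passed with fatty acids by edgeR (0 at an unadjusted p under 0.05, and 0 in DESeq2).

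The design also asks whether formoterol acts differently when fatty acids are present. ABCB1, ABCB10, ABCC2, ABCC6 and ABCD3 rose with formoterol alone and had a negative interaction, and ABCC1, which fell, and ABCC10 had a positive one. The interaction was -0.83 ± 0.16 (adjusted p = 0.00607) for ABCB1, -0.76 ± 0.19 (adjusted p = 0.0214) for ABCC2 and -0.71 ± 0.17 (adjusted p = 0.0197) for ABCC6. For ABCB10 it was -0.56 ± 0.11 (adjusted p = 0.00654) and for ABCD3 -0.30 ± 0.08 (adjusted p = 0.0327). It was 0.54 ± 0.10 (adjusted p = 0.00379) for ABCC1 and 0.58 ± 0.17 (adjusted p = 0.0443) for ABCC10. By edgeR none of these 7 passed when formoterol was added to fatty acids (ABCB1 -0.12 ± 0.11, ABCC2 -0.27 ± 0.13, ABCC6 -0.24 ± 0.12, ABCB10 -0.16 ± 0.08, ABCD3 -0.05 ± 0.06, ABCC1 0.06 ± 0.07, ABCC10 0.37 ± 0.12). Of the 7, ABCC2 and ABCC10 had an unadjusted p under 0.05, ABCC10 was called higher in DESeq2, and ABCC2 was called lower without the count filter. ABCD2 differed from them, since its changes with formoterol were -0.59 ± 0.08 alone and -0.62 ± 0.08 with fatty acids, with an interaction of -0.02 ± 0.11.

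The interactions of ABCB1, ABCB10 and ABCC1 held under every alternative run. That of ABCC2 was lost without control replicate 3 (adjusted p up to 0.0574), ABCC6 without control replicate 3 (adjusted p up to 0.0504), ABCC10 without control replicate 2, 3 or 4 or formoterol replicate 1, 3 or 4 or fatty acids replicate 1, 2 or 3 or combination replicate 1 or 2 (adjusted p up to 0.113), and ABCD3 without control replicate 3 or 4 or formoterol replicate 1, 3 or 4 or fatty acids replicate 1, 2, 3 or 4 or combination replicate 1, with total counts only, without the count filter (adjusted p up to 0.361). Without combination replicate 2, 8 members of 41 tested passed, beside 5.54% of all genes. ABCB4 at -0.61 ± 0.13 (adjusted p = 0.0056) and ABCG8 at -0.79 ± 0.14 (adjusted p = 0.000773) were then also negative. Both were also called negative without the count filter and without combination replicate 3 or 4, and ABCB4 with the replicate number as a block. Of the 15 hepatocyte markers, 11 had a negative interaction and none a positive one, beside 3.38% and 2.12% of all genes. Without combination replicate 2, 13 of these markers had a negative interaction. The part of these markers in the members' interactions was not tested.

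**Figure D5:**
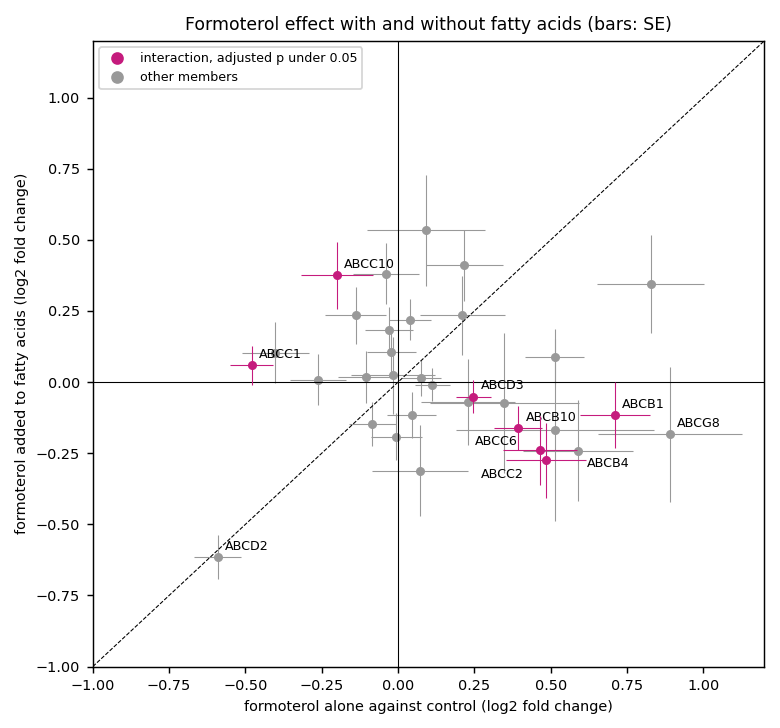
Log2 fold change of formoterol alone against control (x axis) and of formoterol added to fatty acids (y axis) for 33 of the 35 ABC genes averaging 2 CPM or more, with SE bars and the line of equal effect dashed. Members with an interaction past the threshold are coloured, and ABCD2 lies near the line at -0.59 and -0.62.

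The subfamilies hold few members each, and their counts stand beside 16.5% of all genes changed with fatty acids, 10.3% with formoterol and 18.4% in the combination against formoterol. In subfamily B, 4 of 7 tested members changed with formoterol and all 4 rose, and 4 of 7 changed with fatty acids, 3 of them up. Subfamily C had 2 up and 2 down of 10 with formoterol, and 4 up and 1 down for the combination against formoterol. In F, 2 of 3 fell with fatty acids and none passed with formoterol by edgeR (0 at an unadjusted p under 0.05, and 0 in DESeq2). In G, 1 of 5 rose with formoterol and none passed with fatty acids by edgeR (1 at an unadjusted p under 0.05, and 0 in DESeq2). Summed per length, subfamily B stood at 44.6 ± 5.59 CPM per kb in the combination, 47.8 ± 2.17 with fatty acids, 51.9 ± 1.93 with formoterol and 38.7 ± 2.68 CPM per kb in control. Subfamily F stood at 45.5 ± 1.16 CPM per kb in the combination, 43.4 ± 1.72 with fatty acids, 52.5 ± 1.28 with formoterol and 50.8 ± 2.79 CPM per kb in control. No difference between subfamilies was tested, and the counts of subfamily D are not reported here.

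The groups were also set side by side without a model, by counting members whose libraries do not overlap. With fatty acids against control 13 of 40 members did not overlap, beside 21% of all genes, and with formoterol 14 of 40, beside 16.7%. For the combination against control 8 of 40 did not overlap, beside 16.3%, against fatty acids 3 of 40, beside 9.34%, and against formoterol 15 of 40, beside 21.1%.

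Genes that work with these transporters were read from lists, and the counts here and in the next paragraph stand beside the shares of all genes. Those were 8.93% up and 7.62% down with fatty acids, 5.76% and 4.57% with formoterol, 7.58% and 6.68% in the combination, each against control. For the interaction they were 2.12% positive and 3.38% negative. Of 9 tested LXR genes, 5 rose and 1 fell with formoterol, among them SCD at 1.07 ± 0.24 (adjusted p = 0.00628) and SREBF1 at 0.53 ± 0.15 (adjusted p = 0.0257). With fatty acids 1 rose and 3 fell (4 and 3 without combination replicate 2), and SREBF1 was -0.48 ± 0.15 (adjusted p = 0.0302). Of 13 PXR and CAR genes, 7 had a negative interaction and none a positive one, and 2 rose with fatty acids (4 without combination replicate 2). With formoterol 2 rose and 1 fell (8 and 1 without that library). In the combination 1 rose and 2 fell (2 and 3 without that library), each against control. CYP3A4, the main drug-oxidising enzyme of liver, was -1.72 ± 0.26 (adjusted p = 6.46e-05) in the combination against control and -1.43 ± 0.11 (adjusted p = 6.68e-10) without that library. The list's sum spanned 1002 to 2576 CPM in the combination (2322 to 2576 CPM in the 3 libraries other than replicate 2), 3619 to 4333 CPM with fatty acids, 4486 to 5035 CPM with formoterol and 2942 to 4728 CPM in control. Of this sum CYP3A4 alone averaged 663 CPM in the combination, 1920 with fatty acids, 2370 with formoterol and 2180 CPM in control.

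Of 9 tested partners of bile formation, 2 rose with fatty acids and 2 with formoterol, SLCO1B1 and NR1H4 in both. NR1H4, the bile acid receptor FXR, rose by 0.81 ± 0.15 (adjusted p = 0.00141) with formoterol and by 0.50 ± 0.15 (adjusted p = 0.0229) with fatty acids. SLC10A1, which takes up bile salts from blood, was -0.93 ± 0.24 (adjusted p = 0.012) in the combination against control and -0.70 ± 0.20 (adjusted p = 0.0142) without combination replicate 2. Without that library 10 of the list were tested, and 3 rose with each treatment given alone. Of 12 peroxisome and PPARA genes, 5 rose with fatty acids, 6 with formoterol and 2 in the combination (5 without combination replicate 2), none fell in these, and 6 had a negative interaction. Of the other superfamily genes TAP1, TAP2 and CFTR, 2 were tested, and TAP2, a subunit of the antigen peptide transporter, was -0.27 ± 0.08 (adjusted p = 0.0292) with fatty acids.

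How many members counting ambiguity touched cannot be told from the counts alone. Of the 40 tested, 31 overlap another annotated gene, but in 6 (ABCA10, ABCB1, ABCB6, ABCC11, ABCE1 and ABCG5) the overlapping gene had over 10% of the member's counts. Leaving these 6 out of the count, which was chosen after the data were seen, left 34 members. Of the 34, 13 changed with fatty acids, 12 with formoterol and 11 in the combination, each against control, beside 16.5%, 10.3% and 14.3% of all genes. Among the 6 only ABCB1 had any call, so no other call could be lost and the count does not test the ambiguity. ABCC6, whose reads may be split with a pseudogene, was kept in.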

How the data were processed

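Poly-A RNA of 16 HepaRG libraries, 4 per group, was sequenced, and the deposited table holds the authors' gene counts with a gene length column. Per the submitters' processing notes, HISAT2 2.0.5 and DESeq2 were used, and the build they list is mm39, a mouse build. Each of the 58735 gene IDs is nonetheless human, none is a mouse ID, and all have the start and end of GENCODE release 29 (GRCh38), so the counts were read as human. The counting program, its strandedness and how gene length was computed are not stated in the sources used here.

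Genes were filtered with filterByExpr, which kept 18121, scaled by TMM and fitted with edgeR 4.0.16 quasi-likelihood tests over all 16 libraries with 4 group means (12 residual degrees of freedom). The 5 pairwise comparisons and the interaction were adjusted by Benjamini-Hochberg over all genes tested at 0.05, and values are printed for members and for some listed genes. Members and gene lists were chosen with earlier results of these data known. Named members are those past the threshold in at least 1 comparison plus a fixed set, 29 of them named, and per-library values are given for the 12 with the largest called changes and some others. Alternatives were DESeq2 size factors, total counts only, no filter, at least 1 CPM in 4 libraries, DESeq2 1.42.0, the replicate number as a block, only the 2 groups compared, and each library left out in turn. Leaving out members that overlap another gene was added after the data were seen. The notes name no replicate pairing, and same-numbered libraries did not deviate together. In simulated data with 18121 genes, 67%, 72% and 70% of 1.5-fold changes were found for fatty acids, formoterol and the combination against control. Of the calls, 3.64%, 5.2% and 1.78% were false. Only genes averaging 2 CPM or more were changed, 100 by 1.5-fold and 100 by 2-fold, far fewer than were called in the data. Genes at lower levels, the other comparisons and the interaction were not simulated. Promoter sequences are RefSeq's for GRCh38.p14. R was 4.3.3, Python 3.11.15, pandas 2.3.3, numpy 2.4.6 and matplotlib 3.10.9. The gene the rule leaves out and the sequencing reads are not analysed here, and values of some members and listed genes are not reported here.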

Additional observations from a re-analysis of the deposited data

Results flagged for a closer look

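Of 116 sets of 4 libraries (29 named members in 4 groups), 11 held a library whose gap to the nearest other library was large for the range of its group by Dixon's criterion at 95%, which chance meets in about 1 in 20 groups. In 4 of the 11 that library was combination replicate 2, with 26.5 CPM for ABCB4, 116 CPM for ABCC2, 1.07 CPM for ABCG5 and 25.5 CPM for ABCG8, each below its 3 fellow libraries. The hepatocyte marker list averaged -0.639 log2 units from the control mean in that library, against 0.703 to 0.812 in the other 3, and its part in these values was not tested. The other combination library that stood apart was replicate 3 for ABCF3, at 58.1 CPM and low.

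Fatty acids replicate 2 was low for ABCB4, at 55.1 CPM. With formoterol, replicate 4 was low for ABCA2 at 42.0 CPM and high for ABCG8 at 126 CPM, and this library had the most counts (65673126). Formoterol replicate 1 was high for ABCA12 at 22.9 CPM, and formoterol replicate 2 was high for ABCC10 at 16.4 CPM. Control replicate 2 was high for ABCA12, at 20.4 CPM.

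The effect of formoterol differed with fatty acids present for 7 members, by the interaction test (edgeR, adjusted over all genes). The difference, with minus without fatty acids, was -0.83 for ABCB1, -0.56 for ABCB10, -0.76 for ABCC2, -0.71 for ABCC6 and -0.30 for ABCD3, and 0.54 for ABCC1 and 0.58 for ABCC10 (log2).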

How the results depend on the processing

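Of 60 calls of a member in a comparison, 30 held under every alternative run, 30 were lost under at least 1, and 0 reversed. The combination against control gave 7 changed members in place of 11 when only those 2 groups were fitted. Of all genes 11.1% then changed, in place of 14.3%. The combination against fatty acids gave 4 in place of 1 without the count filter and in DESeq2, and 2 when only those 2 groups were fitted. Of all genes 2.54%, 5.04% and 1.61% changed in these runs, in place of 2.8%. Leaving out 1 library at a time gave 9 to 18 changed members with fatty acids, 7 to 14 with formoterol and 7 to 15 in the combination, each against control. Of all genes 12.3% to 19.4%, 5.4% to 14% and 10.6% to 15.2% changed in these runs. Leaving out 1 library gave 1 to 2 for the combination against fatty acids, 10 to 16 against formoterol and 3 to 12 for the interaction. The shares of all genes were 1.62% to 3.19%, 13.3% to 18.3% and 2.39% to 7.13%. The counts that moved by over 1.5 times were 9 with fatty acids without fatty acids replicate 1, 7 with formoterol without control replicate 3, and 7 in the combination without control replicate 4 or combination replicate 1. Of all genes 13.1%, 5.4%, 11% and 11.1% changed in these 4 runs, in place of 16.5%, 10.3% and 14.3% over all libraries. For the interaction such counts were 3 without control replicate 3 (2.39% of all genes) and 12 without combination replicate 3 (7.13%), in place of 5.5%. For the combination against fatty acids such counts were 2 without control replicate 2 or 3 or combination replicate 2 or 3. Those runs called 2.87%, 2.83%, 3.19% and 2.44% of all genes. The cause of these shifts was not tested.

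The replicate numbers share no stated origin, and correlations of same-numbered libraries' deviations ran from -0.113 to 0.082. With the replicate block, the counts were 14 with fatty acids, 13 with formoterol and 10 in the combination against control, 1 and 14 for the combination against fatty acids and formoterol, and 9 for the interaction. In the same order, 17.2%, 10.9%, 14.3%, 2.96%, 19% and 6.01% of all genes changed with the block. ABCA1 in the combination against control was the 1 call not made with the block. The interaction was not refitted on only 2 groups, since it needs 4. With at most 29 counts in a library, ABCA9, ABCA13, ABCB5 and ABCC12 did not pass the count filter over all 16 libraries. Without the filter all 44 members were tested, and these 4 were called in no comparison. ABCA9 was also tested without combination replicate 2 and was not called. At so few counts the lack of a call does not show that a gene is unchanged.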

Other observations

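Neighbouring members did not always move alike. ABCB4 and ABCB1, 23197 bases apart on chromosome 7 and on the same strand, both rose with fatty acids and with formoterol. ABCC1 and ABCC6, 5853 bases apart on chromosome 16 on opposite strands, went opposite ways with formoterol: ABCC6 rose by 0.47 ± 0.12 and ABCC1 fell by 0.48 ± 0.07 on the log2 scale (adjusted p = 0.0165 and 0.000179, edgeR). In the cluster on chromosome 17, ABCA6 and ABCA5 rose with fatty acids, at 0.54 ± 0.14 and 0.33 ± 0.08, while ABCA8 at 0.01 ± 0.14 did not pass and ABCA9 had too few counts to be tested. Differences between neighbours were not tested.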
